A study of Mus musculus with 12 samples.

Results

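The genes described are 9 regulators of the axial progenitors in the mouse tailbud: T, Cdx1, Cdx2, Cdx4, Nkx1-2, Evx1, Gdf11, Sall4 and Greb1. They were chosen by name as factors known to act in or to mark these progenitors, with earlier results of these data known. All 9 were among the 22467 transcripts of the table, and all 9 were among the 12576 transcripts that passed the filter on low RPF counts. The samples were 6 whole embryos at embryonic day E8.5, 3 of them Rpl10a +/+ (wild-type) and 3 Rpl10a LOF/LOF, on a C57BL/6 background. The LOF allele is a genome-edited deletion within the first intron of Rpl10a, which encodes a protein of the large ribosomal subunit. Transcripts of this allele keep the intron and give an RPL10A with an extended N-terminus, so the allele lowers function rather than removing the gene. It is carried in every cell from the germline, so no group compares a tailbud deletion with the rest of the embryo. Each embryo gave 1 ribosome profiling library, in which RPF (ribosome protected fragments) were counted on the coding sequence (CDS), and 1 RNA-seq library, in which reads were counted on the whole transcript. No embryos were pooled. Litters and library batches are not given in the sources used here.

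The vertebrate trunk and tail are laid down from head to tail by progenitors in the primitive streak, the neighbouring epiblast and later the tailbud. These cells are kept in an undifferentiated state by Wnt and Fgf signals and by transcription factors such as T and the Cdx proteins, and their descendants enter the presomitic mesoderm or the neural tube. Gdf11, a secreted ligand of the TGF-beta family, times the switch from trunk to tail formation. In a whole embryo these cells are a minority, so the values below are levels in the whole embryo, in which fewer progenitor cells and less RNA or fewer ribosomes per cell cannot be told apart.

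The 9 genes lie on 9 chromosomes. In GRCm38 the counted transcripts lie at chr17:8434423-8442496 (T), chr18:61018862-61036199 (Cdx1), chr5:147300805-147307270 (Cdx2), chrX:103321398-103330592 (Cdx4), chr7:132594878-132599637 (Nkx1-2), chr6:52313498-52318378 (Evx1), chr10:128882295-128891718 (Gdf11), chr2:168748332-168767201 (Sall4) and chr12:16670615-16800684 (Greb1). T, Cdx4 and Evx1 are on the plus strand and the other members on the minus strand. They run from 2 exons in Nkx1-2 to 35 exons in Greb1. GENCODE vM21 places an RNA on the opposite strand across an exon of Evx1 (Evx1os), Greb1, Nkx1-2 and Sall4. Whether the RNA counts used strand is not given in the sources used here, so RNA values of these 4 genes may hold reads of that partner.

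Translation starts at a codon whose neighbouring bases affect how well the scanning ribosome recognises it, above all the base 3 before the start codon and the base just after it. The start codon surroundings are shown because RPF per RNA, the quantity compared below, is set in part at initiation. They were read from the GENCODE vM21 transcripts and run 5′ to 3′, with the start codon, the base 3 before it (position -3) and the base after it (position +4) in capitals.

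T: ggcgggAggATGAgc

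Cdx2: ctcgccAccATGTac

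Cdx4: caagtcAccATGTat

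Nkx1-2: gaggcgGgcATGTtg

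Evx1: agtccgGggATGGag

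Gdf11: ccctgcAgcATGGtg

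Sall4: gcgcgcAccATGTcg

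Greb1: gctccgGagATGGgc

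The start codons themselves lie at chr17:8434531-8434533 (T), chr5:147306980-147306982 (Cdx2), chrX:103321560-103321562 (Cdx4), chr7:132599524-132599526 (Nkx1-2), chr6:52313845-52313847 (Evx1), chr10:128891683-128891685 (Gdf11), chr2:168767027-168767029 (Sall4) and chr12:16740043-16740045 (Greb1). Each of these 8 starts had A or G at position -3, as did 87.1% of the 12288 tested transcripts with such a context, and Evx1, Gdf11 and Greb1 also had G at position +4, a combination found in 46.0%.

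The depth was 7041357 to 10863499 counts in RPF libraries and 9132521 to 26561843 in RNA libraries. Rpl10a itself was lower in every LOF/LOF embryo. Its RPF level was 1617 ± 58.7 CPM (counts scaled to the normalized library total; SD, n = 3) in wild-type and 1035 ± 92.7 CPM (n = 3) in LOF/LOF embryos, an edgeR log2 fold change of -0.64 with an FDR of 0.00689. Y-linked reads (Ddx3y, Eif2s3y, Kdm5d and Uty together) stood at 154 to 183 CPM in the libraries of all wild-type embryos and of LOF/LOF embryo 2, and at most at 9.09 CPM in those of LOF/LOF embryos 1 and 3. Xist had 235 and 178 CPM in the RNA libraries of LOF/LOF embryos 1 and 3 and at most 8.91 CPM in the others. The sex of the embryos is thus unevenly spread over the genotypes, and results of the 9 genes that differ between LOF/LOF embryo 2 and the other LOF/LOF embryos are given with and without it. A covariate from Y-linked reads, used in some fits below, follows genotype in part. With it the genotype term rests mainly on LOF/LOF embryo 2 against the wild-type embryos, so it is no separate check. A call lost with it cannot be told apart from lost precision.

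Levels between genes were compared per kilobase, RPF over the counted part of the CDS and RNA over the whole transcript. In wild-type embryos, RPF levels were highest for the homeodomain factor Cdx4, at 90.4 ± 3.48 CPM per kb (SD, n = 3), followed by the zinc finger factor Sall4 at 67.9 ± 1.73, Cdx2 at 48.0 ± 1.91 and the cofactor Greb1 at 30.6 ± 0.372 CPM per kb. Nkx1-2, T and Evx1 followed at 15.8, 15.8 and 14.0 CPM per kb, with overlapping embryos. Cdx1 at 7.13 ± 0.736 and Gdf11 at 5.69 ± 0.217 CPM per kb were lowest. The order of the RNA levels was different. Sall4 led with 63.5 ± 3.08 CPM per kb, Cdx2 and Cdx4 did not differ beyond their spread at 46.8 ± 1.21 and 45.4 ± 3.52 CPM per kb, and Cdx1, at 18.5 ± 1.81 CPM per kb, overlapped with Nkx1-2 at 21.3 ± 2.95.

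The ratio of both densities, RPF per kb of CDS over RNA per kb of transcript, describes how many footprints a member had for its RNA. Cdx4 had the highest ratio, 1.99 ± 0.0862 (SD, n = 3), followed by Evx1 with 1.37 ± 0.0431. Greb1, Sall4 and Cdx2 followed at 1.09, 1.07 and 1.03, each overlapping with the next. Nkx1-2 had 0.740 ± 0.0209, T 0.710 ± 0.102 and Gdf11 0.628 ± 0.0236, with T overlapping both of its neighbours. Cdx1 stood lowest, at 0.385 ± 0.00609, which is percentile 4.33 among all tested transcripts. The 3 Cdx genes, which encode closely related activators of posterior Hox genes, thus spanned the whole order of the members. Over all tested transcripts the median was 1.69, with quartiles of 0.993 and 2.64, and Cdx4 alone lay above that median.

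**Figure D1:**
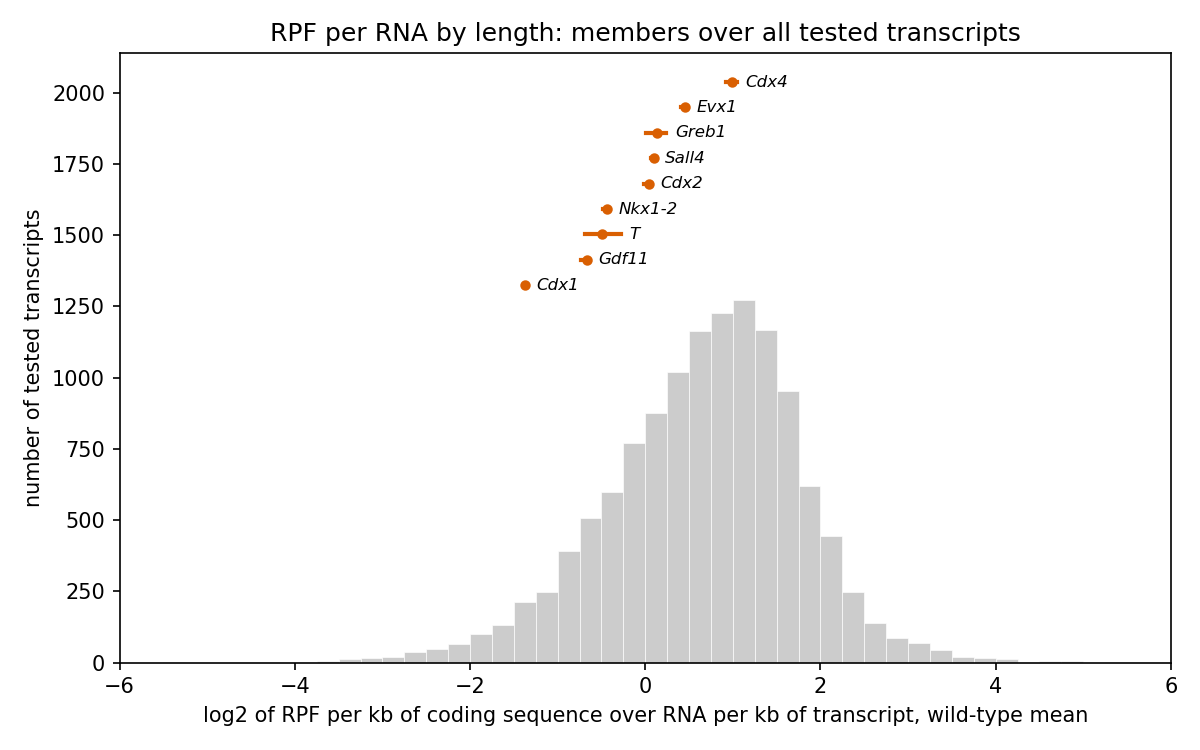
Histogram of the log2 ratio of RPF per kb of CDS to RNA per kb of transcript in wild-type embryos over the tested transcripts, with the number of transcripts on the y axis. Each orange point above it is the wild-type mean of 1 member and its line the range over 3 wild-type embryos, stacked by rank. Cdx1 is farthest to the left and Cdx4 is the member to the right of the median.

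RPF of all 9 members were lower in Rpl10a LOF/LOF embryos by fitted log2 fold change, and none of the 9 passed an FDR of 0.1 in the edgeR test. Over all tested transcripts 49.1% had a lower fitted value, and 2.19% were called in either direction (1.15% lower). The members' median log2 fold change in RPF was -0.24, against 0.0036 over all tested transcripts. The genes share the same 6 embryos, so they are not 9 independent observations. By edgeR's quasi-likelihood test, 4 members (Cdx2, Gdf11, Nkx1-2 and Cdx1) had an unadjusted p below 0.05, all lower in LOF/LOF embryos, as did 6.61% of all tested transcripts in that direction. For 3 members (Cdx2, Evx1 and Gdf11) every LOF/LOF embryo was below every wild-type embryo, which held for 9.45% of all tested transcripts. DESeq2 and limma-voom called no member in RPF either, whereas limma-voom with surrogate variables from sva called 2 lower, Cdx2 (FDR 0.0893) and Greb1 (FDR 0.0716), and 10.4% of all tested transcripts. Without LOF/LOF embryo 2, edgeR called 3 members lower (Cdx1, Nkx1-2 and Gdf11) and 11.5% of all tested transcripts. With LOF/LOF embryo 2 as the only LOF/LOF embryo, which leaves embryos with the same level of Y-linked reads, it called 1 member (Greb1) and 3.86% of all tested transcripts. In that fit the lone embryo is taken to vary like the others. In LOF/LOF embryo 3, all 9 members lay below the 3 wild-type embryos in RPF, against 33.2% of all tested transcripts. In LOF/LOF embryos 1 and 2 this held for 6 members each, against 35.6% and 32.1%.

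**Figure D2:**
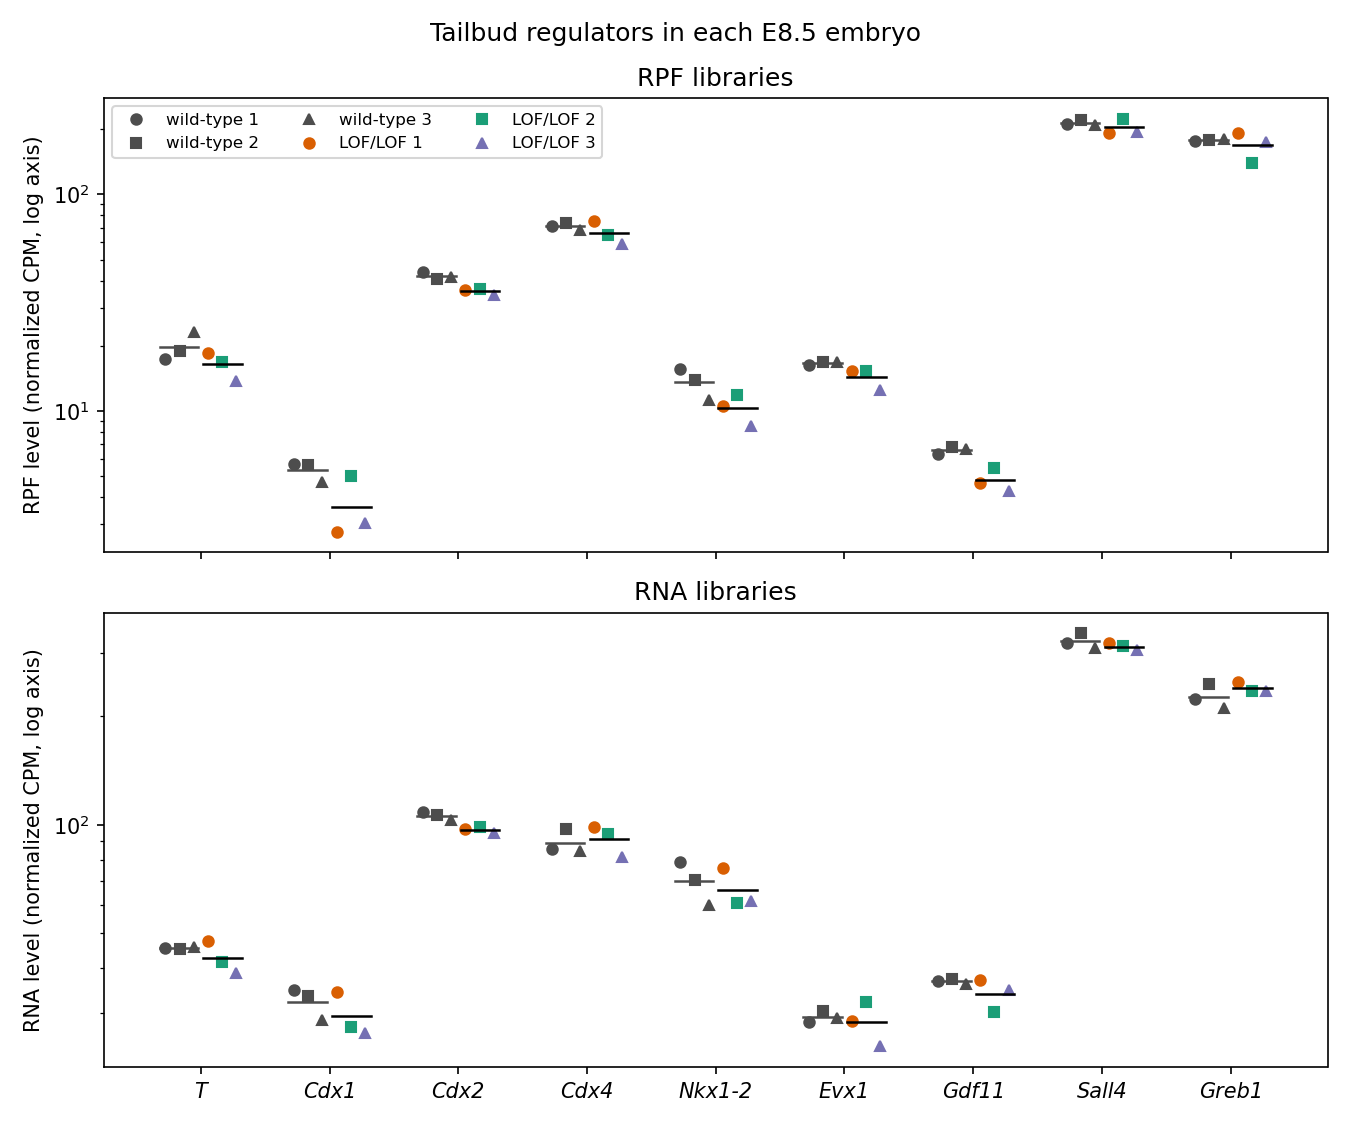
Normalized CPM of the 9 members in each embryo (log axes), RPF above and RNA below. Grey symbols are wild-type embryos, coloured symbols LOF/LOF embryos, and horizontal lines the group means (n = 3 each). The RPF of Cdx2, Evx1 and Gdf11 do not overlap between genotypes, and in RNA this holds for Cdx2.

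Cdx2, the Cdx factor with the strongest known role in axis extension, was fitted with the smallest standard error of the family, 0.084 on the log2 scale. Its RPF stood at 44.0, 40.8 and 41.4 CPM in wild-type embryos 1 to 3 and at 36.1, 36.7 and 34.4 CPM in LOF/LOF embryos 1 to 3, so the genotypes did not overlap. The fitted log2 fold change was -0.24 (95% confidence interval -0.42 to -0.053), with an edgeR p of 0.0162 and an FDR of 0.237, and limma-voom with sva gave -0.23 with an FDR of 0.0893. Its RNA also separated, at 108, 106 and 103 CPM in wild-type against 97.4, 98.5 and 94.7 CPM in LOF/LOF embryos. The log2 fold change in RNA was -0.12 (95% interval -0.22 to -0.023) with an FDR of 0.198. Among the members, Cdx2 alone did not overlap between genotypes in RNA, where 12.6% of all tested transcripts had every LOF/LOF embryo lower.

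Cdx1 had few RPF counts, 62, 48 and 45 in the wild-type and 19, 43 and 32 in the LOF/LOF libraries. These correspond to 5.67, 5.62 and 4.69 CPM against 2.77, 5.00 and 3.04 CPM. LOF/LOF embryos 1 and 3 lay below all wild-type embryos, whereas embryo 2 lay among them. The exact 95% Poisson intervals (counting error only) were 1.67 to 4.32 CPM for LOF/LOF embryo 1 and 3.42 to 6.28 CPM for the lowest wild-type embryo, and they overlap. The fitted log2 fold change was -0.56 (95% interval -1.08 to -0.035) with an FDR of 0.330. Without LOF/LOF embryo 2 it was -0.86 with an FDR of 0.0451, with LOF/LOF embryo 2 alone -0.089 (FDR 0.905), and with a covariate from Y-linked reads -0.15 (FDR 0.942). Cdx1 RNA was 34.8, 33.5 and 28.8 CPM in wild-type and 34.4, 27.4 and 26.5 CPM in LOF/LOF embryos, with overlap.

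Cdx4 is the X-linked member of the family. Its RPF were 71.2, 74.1 and 68.6 CPM in wild-type and 75.5, 65.2 and 59.3 CPM in LOF/LOF embryos, with LOF/LOF embryo 1 above every wild-type embryo. It had a log2 fold change of -0.10 (95% interval -0.31 to 0.11) with an FDR of 0.688. Without LOF/LOF embryo 1 it was -0.20 (FDR 0.293), without LOF/LOF embryo 3 it was -0.022, and with the Y-linked covariate -0.043 (FDR 0.959).

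T, or brachyury, the T-box factor that mesoderm formation from the streak requires, had 17.4, 19.0 and 23.0 CPM of RPF in wild-type and 18.5, 16.9 and 13.8 CPM in LOF/LOF embryos. The genotypes overlapped, since LOF/LOF embryo 1 exceeded wild-type embryo 1. The log2 fold change was -0.28 (95% interval -0.61 to 0.042) with an FDR of 0.440. It was -0.16 without wild-type embryo 3, -0.16 without LOF/LOF embryo 3 and -0.15 with the Y-linked covariate. T RNA was within 45.3 to 45.8 CPM in the wild-type and 47.6, 41.5 and 38.8 CPM in the LOF/LOF embryos. T is also made in the notochord, and the 5 notochord markers Shh, Noto, Foxa2, Chrd and Nog had summed RPF levels of 35.0 to 42.7 CPM in wild-type and 36.7 to 48.2 CPM in LOF/LOF embryos, with no marker called.

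Nkx1-2, a homeodomain factor that marks the epiblast beside the streak and its bipotent progenitors, had 15.5, 13.9 and 11.3 CPM of RPF in wild-type and 10.5, 11.9 and 8.56 CPM in LOF/LOF embryos. LOF/LOF embryo 2 exceeded wild-type embryo 3, and the other LOF/LOF embryos lay below all wild-type embryos. Nkx1-2 had a log2 fold change of -0.41 (95% interval -0.77 to -0.043) with an FDR of 0.305, and -0.53 with an FDR of 0.0954 without LOF/LOF embryo 2. It was -0.20 (FDR 0.688) with LOF/LOF embryo 2 alone and -0.16 (FDR 0.908) with the Y-linked covariate. In RNA the genotypes overlapped widely, with 59.8 to 79.0 CPM in wild-type and 60.7 to 76.0 CPM in LOF/LOF embryos.

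Evx1, a homeodomain factor of the posterior streak, had 16.4, 16.7 and 16.9 CPM of RPF in wild-type and 15.3, 15.4 and 12.6 CPM in LOF/LOF embryos. The genotypes did not overlap, mostly by a small margin. Its log2 fold change was -0.22 (95% interval -0.48 to 0.051) with an FDR of 0.477. It was -0.12 without LOF/LOF embryo 3, -0.11 with LOF/LOF embryo 2 alone and -0.069 with the Y-linked covariate. Its RNA overlapped, at 28.3, 30.5 and 29.1 CPM against 28.5, 32.2 and 24.3 CPM.

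Gdf11 had the lowest footprint density of the members, with 69, 58 and 64 RPF counts in the wild-type and 32, 47 and 45 in the LOF/LOF libraries. Normalized, it stood at 6.31, 6.79 and 6.67 CPM against 4.66, 5.47 and 4.28 CPM, without overlap. The log2 fold change was -0.46 (95% interval -0.83 to -0.085) with an edgeR p of 0.0205 and an FDR of 0.261, and -0.56 with an FDR of 0.0993 without LOF/LOF embryo 2. With LOF/LOF embryo 2 alone and with the Y-linked covariate it was -0.26 each (FDR 0.641 and 0.852). Gdf11 RNA was 36.8, 37.3 and 36.3 CPM in wild-type and 37.1, 30.3 and 34.7 CPM in LOF/LOF embryos, with embryo 1 within the wild-type range.

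Of 17 other genes around the ligand, which cover its receptors, Smad proteins, activating proteases and binding proteins, 14 were tested and edgeR called none in RPF, RNA or translation efficiency. Without LOF/LOF embryo 2 it called 3 lower in RPF (Smad3, Smad4 and Tgfbr1) and 1 higher in RNA (Fst). Limma-voom with sva called Smad4 and Tgfbr1 in RPF. In RPF the fit without LOF/LOF embryo 2 called 11.5% of all tested transcripts in either direction, and the fit with sva 10.4%. In RPF 10 of them had a lower fitted value, with a median log2 fold change of -0.088. Smad4, the Smad shared by the TGF-beta and BMP branches, had a log2 fold change of -0.34 in RPF with an FDR of 0.169. Tgfbr1, a type I receptor of Gdf11, had -0.22 with an FDR of 0.387.

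Sall4 and Greb1 were the members with the most reads. Sall4, a zinc finger factor of pluripotent and axial progenitor cells that recruits the NuRD deacetylase complex, had 212, 220 and 209 CPM of RPF in wild-type and 193, 224 and 195 CPM in LOF/LOF embryos. LOF/LOF embryo 2 was the highest of all 6 embryos and the other LOF/LOF embryos were the lowest. The log2 fold change was -0.066 (95% interval -0.23 to 0.093) with an FDR of 0.753. It was -0.14 (FDR 0.213) without LOF/LOF embryo 2, 0.070 with LOF/LOF embryo 2 alone, 0.047 with the Y-linked covariate, and -0.032 and -0.034 without LOF/LOF embryo 1 or 3. Among 14 Sall and NuRD genes tested, none was called in RPF, and Gatad2b, a NuRD subunit, was higher in RNA (log2 fold change 0.28, FDR 0.0972), a direction called for 1.77% of all tested transcripts. This call was lost without any single embryo but wild-type embryo 2 and with the Y-linked covariate. It was also lost with limma-voom and sva, with the replicate block and with a filter of 2 CPM. Without LOF/LOF embryo 2, Hdac2 and Mta1 were called lower in RPF, in a fit that called 11.5% of all tested transcripts.

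Greb1, a large protein first known from cells responding to estrogen and also made in the tailbud, had 176, 177 and 180 CPM of RPF in wild-type and 191, 139 and 174 CPM in LOF/LOF embryos. Here LOF/LOF embryo 2 was the lowest and embryo 1 the highest of the 6. The log2 fold change was -0.079 (95% interval -0.30 to 0.14) with an FDR of 0.793. Without LOF/LOF embryo 2 the direction turned, to a log2 fold change of 0.041. With LOF/LOF embryo 2 as the only LOF/LOF embryo it was -0.35 with an FDR of 0.0133. It was -0.18 without LOF/LOF embryo 1, -0.28 (FDR 0.612) with the Y-linked covariate and -0.15 (FDR 0.0716) with limma-voom and sva.

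In RNA, 7 of the 9 members had lower fitted values (50.6% of all tested transcripts) and none was called, against 5.02% of all tested transcripts called in either direction (3.25% lower). The members' median log2 fold change in RNA was -0.059. Cdx4 and Greb1 had higher fitted values, 0.038 and 0.080. The members' RNA fold changes lay between -0.12 and 0.080, and those in RPF between -0.56 and -0.066. By the edgeR test 1 member, Cdx2, had an unadjusted p below 0.05 in RNA, against 9.6% of all tested transcripts that did so with a lower value, and 0 members were called by DESeq2.

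Translation efficiency, the change in RPF beyond that in RNA, was assessed by 1 edgeR model over the 12 libraries, with an interaction term between genotype and kind of library. The model does not use the pairing of the RPF and RNA libraries of an embryo. All 9 members had lower fitted values (48% of all tested transcripts), with a median log2 change of -0.18 against 0.0066 over all tested transcripts. No member and no transcript at all was called (0%), the lowest FDR over all transcripts was 0.974, and the members had FDRs of 1.00. In this model 559 transcripts (4.44%, or 1.96% with a lower value) had an unadjusted p below 0.05, and no member did. The largest fitted changes were those of Cdx1 (-0.43, 95% interval -0.99 to 0.12), Nkx1-2 (-0.35, -0.81 to 0.11) and Gdf11 (-0.35, -0.70 to 0.012), and the smallest that of Sall4 (-0.020, -0.21 to 0.17).

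**Figure D3:**
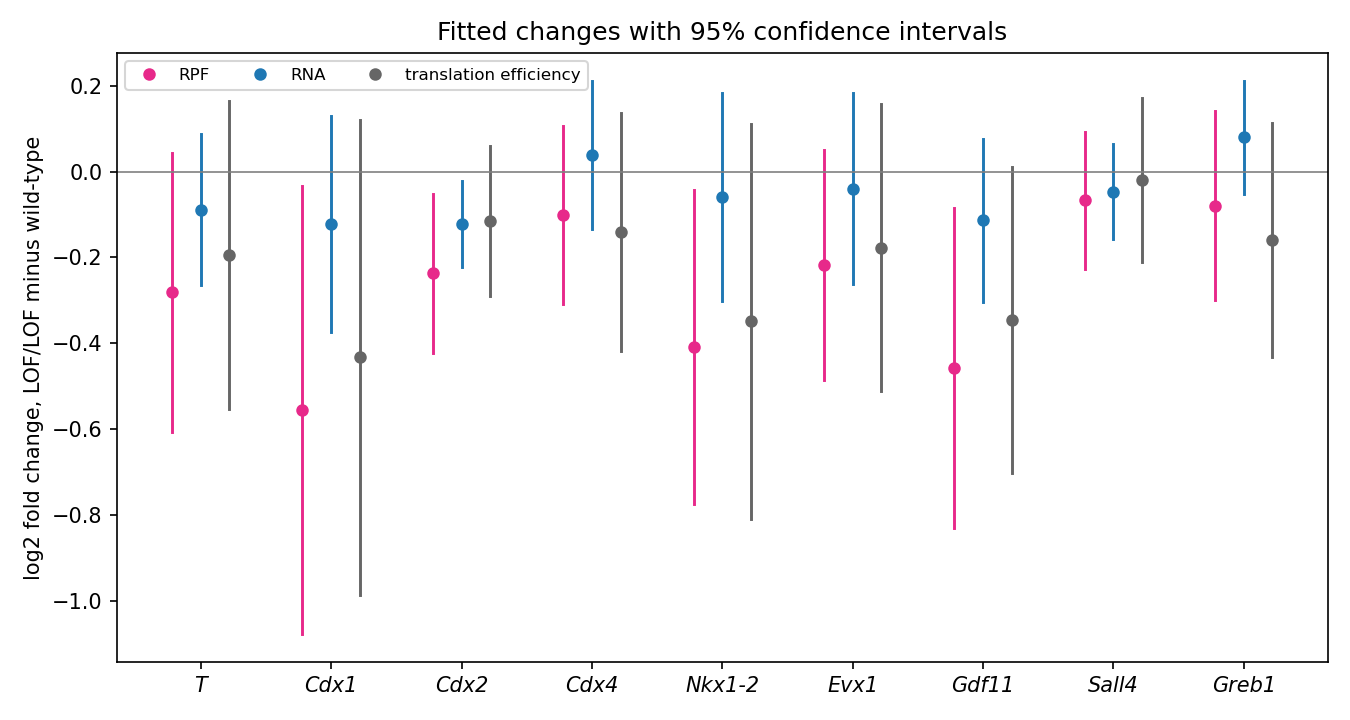
Log2 fold change of LOF/LOF over wild-type embryos for each member in RPF, RNA and translation efficiency, fitted by edgeR. Lines are 95% confidence intervals (n = 3 embryos per genotype). All RPF and translation efficiency points lie below 0, and in RPF the intervals of Cdx1, Cdx2, Nkx1-2 and Gdf11 leave out 0.

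RPF per RNA of single embryos, taken as the ratio of normalized CPM, split the members further. Cdx1 had ratios of 0.163, 0.168 and 0.163 in wild-type embryos and of 0.0806, 0.182 and 0.115 in LOF/LOF embryos 1 to 3. Nkx1-2 had 0.197, 0.199 and 0.188 against 0.138, 0.195 and 0.139, and Gdf11 had 0.171, 0.182 and 0.184 against 0.126, 0.180 and 0.123. For each of these 3 genes LOF/LOF embryos 1 and 3 lay well below the wild-type embryos, and LOF/LOF embryo 2 lay among them or, for Cdx1, above them.

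The other members differed. Cdx2 had 0.406, 0.385 and 0.403 in wild-type and 0.371, 0.372 and 0.364 in LOF/LOF embryos, and Evx1 had 0.578, 0.548 and 0.580 against 0.537, 0.477 and 0.516. For both, every LOF/LOF embryo was below every wild-type embryo, as for 5.22% of all tested transcripts in this ratio. An exact permutation test of 3 embryos against 3 gave a two-sided p of 0.1 for each, the smallest this design allows. Cdx4 had 0.830, 0.763 and 0.810 against 0.766, 0.691 and 0.729, with LOF/LOF embryo 1 just within the wild-type range. T had 0.381, 0.419 and 0.503 against 0.389, 0.406 and 0.355. Greb1 and Sall4 went opposite ways in LOF/LOF embryo 2, which had the lowest Greb1 ratio (0.591, against 0.725 to 0.851 in wild-type) and the highest Sall4 ratio (0.717, against 0.647 to 0.677).

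**Figure D4:**
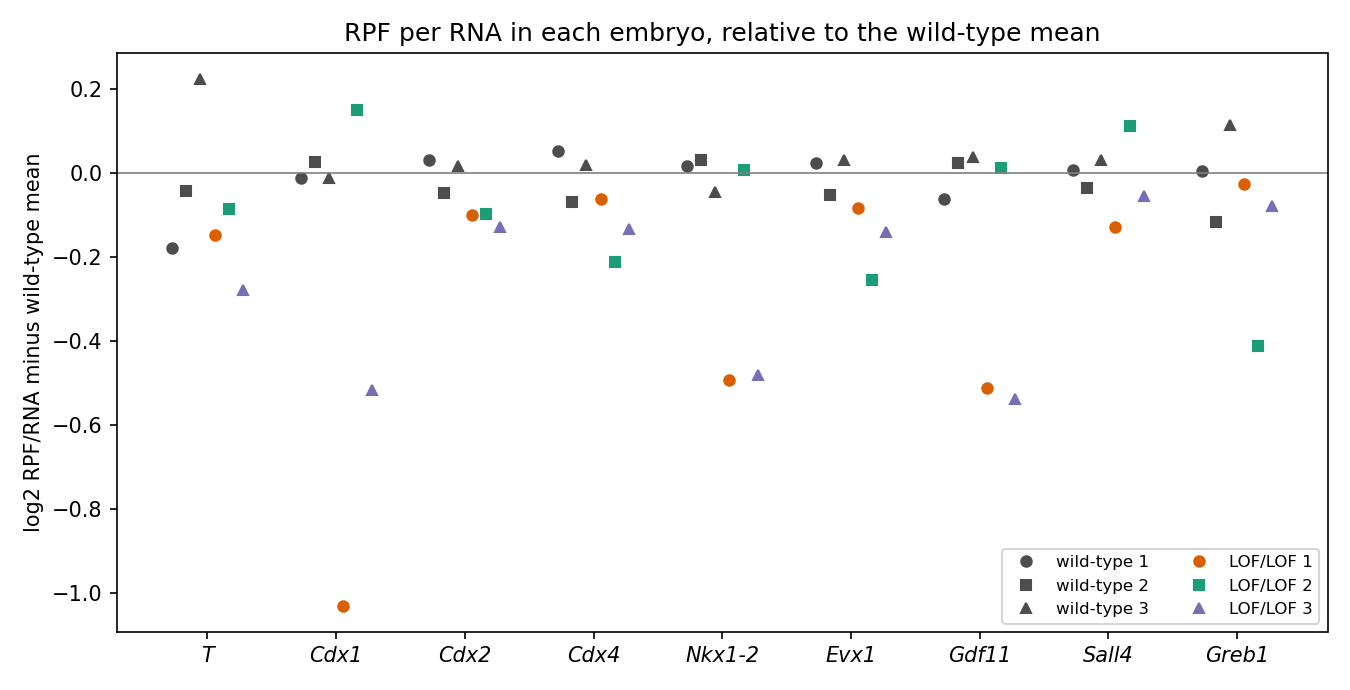
Log2 RPF/RNA of each member in each embryo minus the mean of the 3 wild-type embryos, so that 0 is the wild-type mean. For Cdx1, Nkx1-2 and Gdf11, LOF/LOF embryos 1 and 3 lie apart below all other embryos, and for Greb1 it is LOF/LOF embryo 2.

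Averaged over the 9 members, log2 RPF/RNA minus the wild-type mean was -0.29, -0.087 and -0.26 in LOF/LOF embryos 1, 2 and 3, while the median of this difference over all tested transcripts was 0.021, 0.0017 and 0.011. Below every wild-type embryo were 6, 4 and 8 members in LOF/LOF embryos 1, 2 and 3, against 31%, 27.5% and 29.6% of all tested transcripts. With LOF/LOF embryo 2 as the only LOF/LOF embryo, which compares embryos with the same level of Y-linked reads, the log2 change in translation efficiency of Cdx1 was 0.14, that of Gdf11 0.016 and that of Nkx1-2 -0.014, against -0.41 for Greb1. Without LOF/LOF embryo 2 these changes were -0.80 for Cdx1, -0.54 for Gdf11, -0.54 for Nkx1-2 and -0.053 for Greb1, and the lowest FDR among the members was 0.266.

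The members also differ in the sequence before the start codon. GC content of the 5'UTR was highest in Cdx1 (82.3%, percentile 96.9 among tested transcripts), Gdf11 (78.8%, percentile 92.8, over only 33 nt) and Nkx1-2 (69.4%, percentile 67.0). It was 65.6% in Cdx2, 60.8% in Evx1 and 59.3% in T, and between 53.5% and 54.9% in Sall4, Cdx4 and Greb1, with a median of 64.8% over all tested transcripts. The members with the 3 most GC-rich 5'UTRs were the same 3 whose RPF per RNA lay apart in LOF/LOF embryos 1 and 3. Over the 9 members, the deviation of log2 RPF/RNA from the wild-type mean had a Spearman correlation with 5'UTR GC content of -0.73 in LOF/LOF embryo 1, 0.42 in embryo 2 and -0.83 in embryo 3 (9 genes of 1 embryo each, which share its libraries). For the 12112 tested transcripts whose 5'UTR reached 20 nt, the same correlation was -0.33, 0.12 and -0.21 in these embryos and between -0.067 and 0.13 in wild-type embryos.

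**Figure D5:**
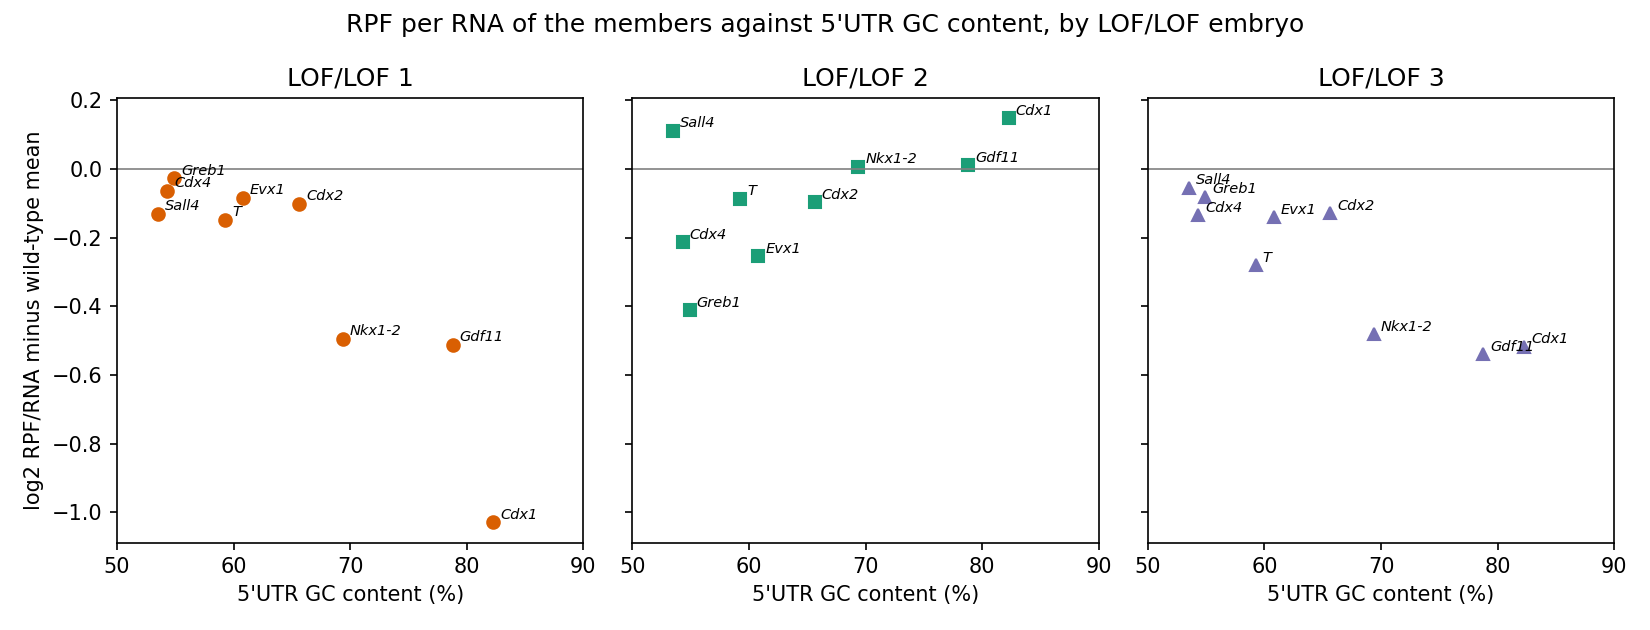
Log2 RPF/RNA of each member minus the wild-type mean (y axis) against the GC content of its 5'UTR in percent (x axis), 1 panel per LOF/LOF embryo. Cdx1, Gdf11 and Nkx1-2 lie to the right and lowest in embryos 1 and 3, and at or above 0 in embryo 2.

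When the trend with 5'UTR GC content over all transcripts was removed from each library, a step added after the data had been seen, the values of these 3 genes, which were picked for the pattern, moved. The corrected RPF/RNA of Cdx1 was 0.156 to 0.165 in wild-type embryos and 0.0914, 0.167 and 0.120 in LOF/LOF embryos 1 to 3. Corrected Nkx1-2 was 0.187 to 0.198 against 0.140, 0.194 and 0.140, and corrected Gdf11 0.169 to 0.180 against 0.138, 0.169 and 0.127. For these genes the values of LOF/LOF embryos 1 and 3 lay nearer to the wild-type range than without the correction and below it. RPF/RNA fell with 5'UTR GC content over all transcripts in these embryos. Removing that trend had to raise GC-rich genes there, so the direction of this move was fixed in advance. The fitted change in translation efficiency went from -0.43 to -0.37 for Cdx1, from -0.35 to -0.34 for Nkx1-2 and from -0.35 to -0.29 for Gdf11. For the other 6 members it moved further down, to -0.22 for T, -0.12 for Cdx2, -0.18 for Cdx4, -0.20 for Evx1, -0.055 for Sall4 and -0.20 for Greb1. Corrected T in LOF/LOF embryo 1, at 0.375, fell below the lowest wild-type embryo at 0.383, within whose range it had been. With the trend for CDS GC content removed instead, LOF/LOF embryos 1 to 3 had corrected values of 0.0852, 0.177 and 0.112 for Cdx1 against 0.161 to 0.169 in wild-type embryos, 0.144, 0.191 and 0.137 for Nkx1-2 against 0.193 to 0.195, and 0.129, 0.177 and 0.123 for Gdf11 against 0.169 to 0.186. Beyond the fits with Y-linked reads given above, the part of embryo sex and of 5'UTR length in these values was not tested.

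The length of the 5'UTR ordered the members in part like its GC content. The 4 shortest were those of Gdf11 (33 nt), Cdx1 (79 nt), T (108 nt) and Nkx1-2 (111 nt), against a median of 175 nt over all tested transcripts. Upstream ATG triplets were absent from T, Nkx1-2 and Gdf11, numbered 1 in Cdx1 and Cdx2, 2 in Cdx4 and 3 in Evx1, and reached 4 in Sall4 and 6 in Greb1, whose 5'UTRs are 172 and 428 nt long. An upstream ATG was present in 49.8% of all tested transcripts. CDS GC content was high in Cdx1 (68.4%), Evx1 (67.7%), Nkx1-2 (65.7%), Cdx2 (63.8%) and Gdf11 (62.6%) and lowest in Cdx4 (54.7%), against a median of 53.1%. Over the 9 members, its Spearman correlation with the deviation of log2 RPF/RNA had the same signs as that of 5'UTR GC content, at -0.58, 0.42 and -0.48 in LOF/LOF embryos 1 to 3.

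Around the progenitors, the presomitic mesoderm was the one list of posterior genes with calls. Of its 9 genes, 7 had lower RPF (49.1% of all tested transcripts) and 3 were called lower (1.15%). These were Dll1, a Notch ligand, with a log2 fold change of -0.52 (FDR 0.0901), Lfng, a glycosyltransferase that modifies Notch, with -0.46 (FDR 0.0912), and Msgn1, a bHLH factor of the presomitic mesoderm, with -0.55 (FDR 0.0855). Lfng was also called lower in RNA, by -0.37 (FDR 0.0530). Summed RPF of the 9 genes stood at 193 to 221 CPM in wild-type and 147 to 177 CPM in LOF/LOF embryos, without overlap, and summed RNA at 190 to 200 against 168 to 178 CPM. Tbx6, a T-box factor of these cells, had an RPF log2 fold change of -0.41 with an FDR of 0.118. All 3 RPF calls were lost without wild-type embryo 1, 2 or 3 or LOF/LOF embryo 3 and with the Y-linked covariate. DESeq2 did not call Msgn1, the fit corrected for CDS GC content did not call Dll1, and limma-voom called all 3. There were 2 calls without LOF/LOF embryo 1, with Lfng and Msgn1 not among them. Without LOF/LOF embryo 2 there were 4, in a fit that called 11.5% of all tested transcripts. The Lfng call in RNA was lost without wild-type embryo 1 or 2 or LOF/LOF embryo 2 or 3, with LOF/LOF embryo 2 alone and with the covariate.

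Of 21 streak and tailbud genes, some in the Wnt, Fgf and retinoic acid pathways and others outside them, 19 were tested. Of these, 9 had lower RPF and none was called in RPF or RNA, with a median log2 fold change of 0.0059 in RPF. Limma-voom with sva called 2 in RPF, Cyp26a1 and Wnt5a, 1 in each direction, and 10.4% of all tested transcripts. In RNA Cyp26a1 had an FDR of 0.113 in the edgeR test on all embryos. It was called lower in RNA without wild-type embryo 2, without the X and Y chromosomes and with the correction for CDS GC content. Of 19 trunk Hox genes, among them direct targets of Cdx factors, 16 were tested, 5 had lower RPF and none was called, with a median of 0.060.

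Markers of some other tissues differed between the genotypes, which also differ in the sex of the embryos. Of 9 visceral endoderm markers tested, 8 were called lower in RPF and 9 in RNA (1.15% and 3.25% of all tested transcripts were). RPF log2 fold changes of the largest ran from -1.46 for Apoa4 to -1.10 for Cubn, with Amn, Apoa1, Apob and Ttr between. Summed RPF ranged from 6420 to 8438 CPM in wild-type embryos and was 3257, 4835 and 2277 CPM in LOF/LOF embryos 1 to 3, and none of the tested markers was at 0. The 8 RPF calls fell to 0 without wild-type embryo 1 or 2 and with the Y-linked covariate, to 2 without LOF/LOF embryo 1 and to 3 without LOF/LOF embryo 3. They were 9 without LOF/LOF embryo 2, where 11.5% of all tested transcripts were called. On all embryos, DESeq2 called 2 in RPF, Apob and Cubn, and limma-voom called 9. In RNA, 3 to 9 stayed called with 1 embryo left out, and 2 with the covariate.

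Of 8 heart markers 5 were called higher in RPF and 7 in RNA (1.05% and 1.77% of all tested transcripts were). In RPF these were Tnnt2 (0.50), Myl4 (0.49), Myh7 (0.48), Myh6 (0.48) and Actc1 (0.39) on the log2 scale, and Tbx5 had the largest called change in RNA (0.51). Summed RPF was 1641 to 1840 CPM against 2203 to 2651 CPM. With 1 embryo left out, 0 (without wild-type embryo 1 or 2) to 6 (without LOF/LOF embryo 2) were called in RPF and 2 to 6 in RNA, and 1 in each with the covariate. Without LOF/LOF embryo 2, 11.5% of all tested transcripts were called in RPF.

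Of 9 primitive blood markers 4 were called higher in RPF and 1 in RNA (1.05% and 1.77% of all tested transcripts were). The 4 were Alas2 (1.41), Klf1 (1.31) and the globins Hbb-y (1.67) and Hba-a2 (1.78), and in RNA it was Alas2 (1.15). Hba-a2 RPF lay near the filter of 0.75 CPM, at 0.652 ± 0.432 CPM in wild-type and 2.31 ± 0.358 CPM in LOF/LOF embryos. Its place among the tested transcripts thus rests on the LOF/LOF embryos. With a filter of 2 CPM, Alas2 and Klf1 alone stayed called. DESeq2 called 3 in RPF, without Alas2 and Hbb-y, and limma-voom called 8. Hba-a2 has a near-identical copy, Hba-a1, so its reads may be shared. Summed RPF was 838 to 2820 CPM in wild-type embryos and 3556, 5790 and 3518 CPM in LOF/LOF embryos 1 to 3. With 1 embryo left out, 0 (without wild-type embryo 1 or 2 or LOF/LOF embryo 3) to 9 (without wild-type embryo 3) were called in RPF and 0 to 9 in RNA. The share of all tested transcripts called in RPF also varied between these fits, up to 11.5% without LOF/LOF embryo 2. With the covariate none was called.

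In the edgeR test on all embryos no somite, neural plate or allantois marker was called. Some alternatives called up to 2 allantois markers, up to 2 neural plate markers or 1 somite marker. The part of tissue composition in the members' values was not tested.

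The transcripts whose levels followed T most closely over the 12 libraries, centred within RPF and within RNA, were Mxi1 (Pearson r 0.93), Peli1 (0.92), Rab10 (0.92), Arih1 (0.92) and Tfam (0.91). Among the members, Gdf11 and Evx1 came nearest to T, each with r of 0.70, followed by Cdx2 with 0.59 and Cdx4 with 0.56, and Greb1 was farthest with 0.21. These correlations describe 12 libraries of 6 embryos.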

How the data were processed

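Whole E8.5 embryos, 3 wild-type and 3 Rpl10a LOF/LOF, each gave 1 RPF and 1 RNA library, and groups were taken from the submitters' labels. The authors trimmed the reads with cutadapt, removed rRNA, tRNA and snRNA reads with bowtie2, aligned the rest to canonical GENCODE transcripts of GRCm38/mm10 and removed PCR duplicates with UMI-tools. The deposited values are raw counts per transcript: for RPF, reads with the A site in the CDS without its first 15 and last 5 codons, and for RNA, reads on the entire transcript. RPF libraries held 7041357 to 10863499 counts, and the smallest member count, 19 for Cdx1, carries a counting error of 22.9%. Intervals on counts cover counting error only.

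Transcripts above 0.75 CPM in 3 or more RPF libraries were tested with edgeR 4.0.16 (R 4.3.3) by the quasi-likelihood test, with TMM normalization of RPF and RNA libraries apart, genotype as the only factor and Benjamini-Hochberg adjustment over all 12576 transcripts at an FDR of 0.1. Translation efficiency was the interaction of genotype and library. No p was adjusted over the members alone. Per-kb levels used the CDS and transcript lengths of GENCODE vM21, to which 21976 of 22467 transcripts matched in the same version and 477 in a different one, with 14 unmatched.

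Members and gene lists were chosen with earlier results of these data known. The text names all members, Rpl10a, Xist, the Y-linked genes, genes of a list with an FDR below 0.1 (at most the 6 with the largest change) and the 5 transcripts most like T. Other list genes (Smad3, Smad4, Tgfbr1, Fst, Tbx6, Hdac2, Mta1, Cyp26a1, Wnt5a) were named after their values were seen, Hba-a1 as a copy of Hba-a2, and the 5 notochord markers as a whole list. Calls in the lists under each alternative were counted after the data were examined. The p-values in RPF and RNA, and those of the permutation test, measure the spread between 3 embryos per genotype. Those in translation efficiency come from a model that treats the 12 libraries as independent. It leaves out the pairing by embryo, except in the alternative with an embryo block. No pair of libraries agreed within sampling noise (chi-square per degree of freedom 2.16 or more).

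Alternatives were DESeq2 1.42.0, limma-voom (limma 3.58.1), the same with sva 3.50.0 (2 surrogate variables), RLE size factors, TMM over all libraries together, other filters, a replicate block, a covariate from Y-linked reads, embryos with the same level of Y-linked reads, and each embryo left out in turn. Leaving out the X and Y chromosomes and loess corrections for GC content of the CDS or the 5'UTR were added after the data were examined. Replicate numbers are shared by different embryos, whose deviations correlated at -0.10 to 0.08, so they do not pair the genotypes. The RPF and RNA libraries of 1 embryo are a true pair, with correlations of 0.19 to 0.40. The steps were tested on simulated data.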

Additional observations from a re-analysis of the deposited data

How the results depend on the processing

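In the alternatives run, 0 members were called in RNA or translation efficiency. Limma-voom with sva was fitted to RPF and RNA and not to translation efficiency. In RPF, 0 members were called in the test used in the report, 2 with limma-voom and sva (Cdx2, FDR 0.0893, and Greb1, FDR 0.0716), 1 with only embryos of the same level of Y-linked reads (Greb1), and 0 to 3 when each embryo was left out, the 3 being Cdx1, Nkx1-2 and Gdf11 without LOF/LOF embryo 2. The shares of all tested transcripts called were 2.19%, 10.4% with sva, 3.86% with the same level of Y-linked reads and 11.5% without LOF/LOF embryo 2. The replicate block, and the embryo block in translation efficiency, gave 0 calls of members and changed none. Removing the X and Y chromosomes or GC trends also gave 0.

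Some directions reversed. With the Y-linked covariate, log2 fold changes were 0.047 (Sall4, RPF), 0.16 (Evx1, RNA), 0.035 (Cdx1, translation efficiency) and 0.084 (Sall4, translation efficiency). With only embryos of the same level of Y-linked reads they were 0.070 (Sall4, RPF), 0.13 (Evx1, RNA), and 0.14, 0.016 and 0.12 (Cdx1, Gdf11 and Sall4, translation efficiency). Leaving out each embryo in turn, they ranged from -0.18 to 0.041 for Greb1 in RPF (positive without LOF/LOF embryo 2), from -0.021 to 0.11 for Cdx4 (negative without wild-type embryo 3 or LOF/LOF embryo 1), from -0.18 to 0.027 for Nkx1-2 (positive without wild-type embryo 1 or LOF/LOF embryo 2) and from -0.14 to 0.046 for Evx1 in RNA (positive without LOF/LOF embryo 3), and from -0.092 to 0.032 for Sall4 in translation efficiency (positive without LOF/LOF embryo 1). The cause was not tested.

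Calls over all transcripts in RPF were 276 with that test, 437 without a filter, 1306 with sva, 22 with the Y-linked covariate, 486 with only embryos of the same level of Y-linked reads and 4 (without wild-type embryo 2) to 1449 (without LOF/LOF embryo 2) with 1 embryo left out. In RNA they were 631, and 35 with the covariate, 100 with the same level of Y-linked reads, 138 without wild-type embryo 1 and 336 without LOF/LOF embryo 3. In translation efficiency they were 0, and 4 with DESeq2, 2 with the same level of Y-linked reads and 26 without LOF/LOF embryo 2. Cdx1 and Gdf11, with 19 to 69 RPF counts per library, are the members whose RPF values depth limits most.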
